A study of Mus musculus with 4 samples.

Results

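The genes described here are the chemokines and chemokine receptors of the mouse: every gene whose array symbol is Ccl, Cxcl, Ccr or Cxcr followed by a digit, together with Cx3cl1 and Cx3cr1. They number 48 of the 18193 genes that could be named on the array, 32 of them ligands and 16 receptors. They were chosen by symbol, with earlier results of these data known, from 76 probe sets annotated to exactly 1 gene. Where a gene had several, the one with the highest average on the log2 scale stands for it. Another 4 probe sets, annotated to several genes of the Ccl19, Ccl21 or Ccl27 families at once, were not used.

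The study followed osteoclast formation from the marrow of C57BL/6 mice, 8 to 10 weeks old, with 1 array for each of 4 cultures. A culture of 3 days in M-CSF (100 ng/ml) gave the bone marrow macrophages (BMM). Adding RANKL at 100 ng/ml for 2 days gave mononuclear pre-osteoclasts stained for tartrate-resistant acid phosphatase (pOC). Another 2 days with both cytokines gave multinucleated osteoclasts on plastic (mOCp) or osteoclasts resorbing slices of dentin (mOCd). All 4 cultures had M-CSF, no array holds macrophages kept for the longer times without RANKL, and the labels do not say whether RNA from several mice was pooled. RANKL, time in culture and maturation therefore cannot be told apart.

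Chemokines are small secreted proteins that direct cell migration, and they are sorted into CC, CXC and CX3C types by the spacing of their first cysteines. They signal through receptors coupled to inhibitory G proteins, and most inflammatory chemokines share receptors with several others. Monocytes leave the marrow through CCR2, resident macrophages carry CX3CR1, and osteoclasts and their precursors carry CCR1, for which the mouse ligand CCL9 is an abundant osteoclast product.

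The deposited values are MAS5 signal intensities, brought to the same trimmed mean on every array. Values under the 50th percentile of an array were raised to that percentile, called the floor, which lay between 12.7 and 15.8. A gene is called higher or lower at a ratio of 2-fold or more between floored intensities, provided that the brighter value reaches the 75th percentile of its array, between 77.8 and 87.0. Where the dimmer value is at the floor the ratio is a bound, written as at least N-fold. With 1 array per culture there is no replicate, no test and no error bar, and precision is limited by the number of arrays. The standard deviation of log2 ratios between probe sets of the same gene, 0.41 to 0.54 over all genes, is the only measure of error in the table. It leaves out the spread between cultures and arrays. Intensities of different genes come from different probes and are not compared with each other.

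Markers set BMM apart from the cultures with RANKL. Osteoclast markers such as Ctsk were at the 75th percentile for 0 of 9 in BMM, 8 in pOC and 9 in each of mOCp and mOCd. The exception in pOC was Calcr, at 15.5. The osteoclast counts were equal in mOCp and mOCd, so they do not check the labels of plastic and dentin. Macrophage markers at it numbered 10 of 10 in BMM and 7 in pOC, with 8 in mOCp and 6 in mOCd. Macrophage markers were lower in mOCd than in mOCp for 5 of 8, where 2.55% of all genes were called lower. Of 6 T and NK cell markers 4 were under the floor throughout, while Cd2 read 15.1 in mOCp and Cd3e 21.4 in mOCd. Of 4 B cell markers, Cd79b exceeded the floor in BMM at 16.5 and Pax5 did so on 3 arrays, at no more than 22.5, and the other 2 were under it throughout. Neutrophil markers had a summed intensity over 8 genes of 323.5 in BMM and 841.8 in pOC, with 1886.1 in mOCp and 968.6 in mOCd, led by S100a8. The stromal gene Dcn read 8.8 in BMM and 196.1 in pOC, with 55.0 in mOCp and 127.3 in mOCd, and was the 1 gene of 5 in its list to reach the 75th percentile. Col1a2 read 18.8 in BMM and 31.5 in pOC and was under the floor in both mature cultures. The mOCd array stood apart in its spike-in controls, 0.60 above BMM on the log2 scale against 0.13 in pOC and 0.26 in mOCp. Its 3′ over 5′ ratio of the transferrin receptor control probes was 1.70 on that scale, against 0.84 to 1.01 on the other arrays. The same ratio of Gapdh and actin, at -0.34 and 0.28 in mOCd, lay within the range of the other arrays. The part of these control readings in the mOCd values was not tested. Fewer cells of a type and less RNA per cell cannot be told apart in such cultures.

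Of the 48 genes, 18 reached the 75th percentile on at least 1 array (37.5%, against 42.8% of all named genes). A further 17 exceeded the floor without reaching it, and 13 stayed at or under the floor throughout. The bright genes comprised 13 ligands and 5 receptors. BMM held 15 members at the 75th percentile, pOC 9, mOCp 10 and mOCd 8.

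**Figure D1:**
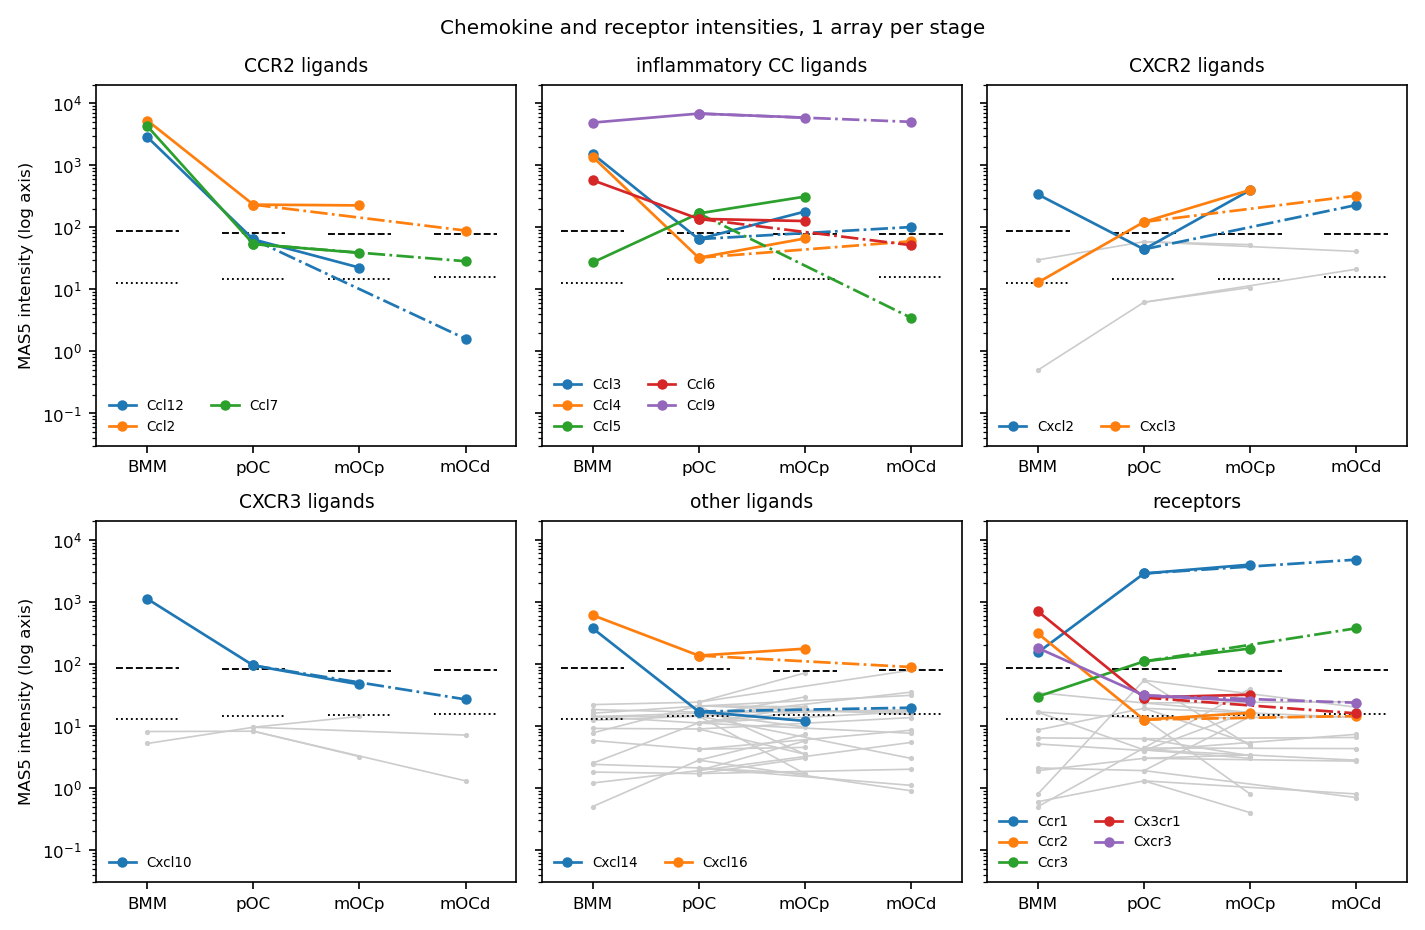
MAS5 intensity of all 48 genes by culture on a log axis, 1 point per array, in panels by role; coloured lines are the 18 bright genes, grey lines the rest, solid lines lead to plastic and dash-dotted lines to dentin. Short dashed bars mark the 75th percentile and dotted bars the floor of each array: the 3 CCR2 ligands lie lower in pOC than in BMM, whereas Ccr1 and Ccr3 lie higher.

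Of the 4 comparisons, pOC against BMM held the most calls among these genes, where 13 were called lower and 4 higher of 18 with a brighter value at the 75th percentile. Over all genes, 13.1% of 7250 were called lower and 11.1% higher, 24.3% in either direction. The median log2 ratio of the 18 was -3.25, against 0.05 for all 7250. Over the 31 members above the floor on either array it was -0.20, against 0.09 for 11805 genes chosen likewise. The mature cultures also differed from BMM, Ccl7 by 149.8-fold lower and Ccr1 by 31.3-fold higher in mOCd. In pOC the lower genes were Ccl2, Ccl3, Ccl4, Ccl6, Ccl7, Ccl12, Cxcl2, Cxcl10, Cxcl14, Cxcl16, Ccr2, Cx3cr1 and Cxcr3, and the higher ones were Ccl5, Cxcl3, Ccr1 and Ccr3. A gene bright in BMM alone enters such a count, and the median of the 18, through the array where it is high. Both therefore describe these arrays. Ccl9 was the remaining bright gene and was not called.

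**Figure D2:**
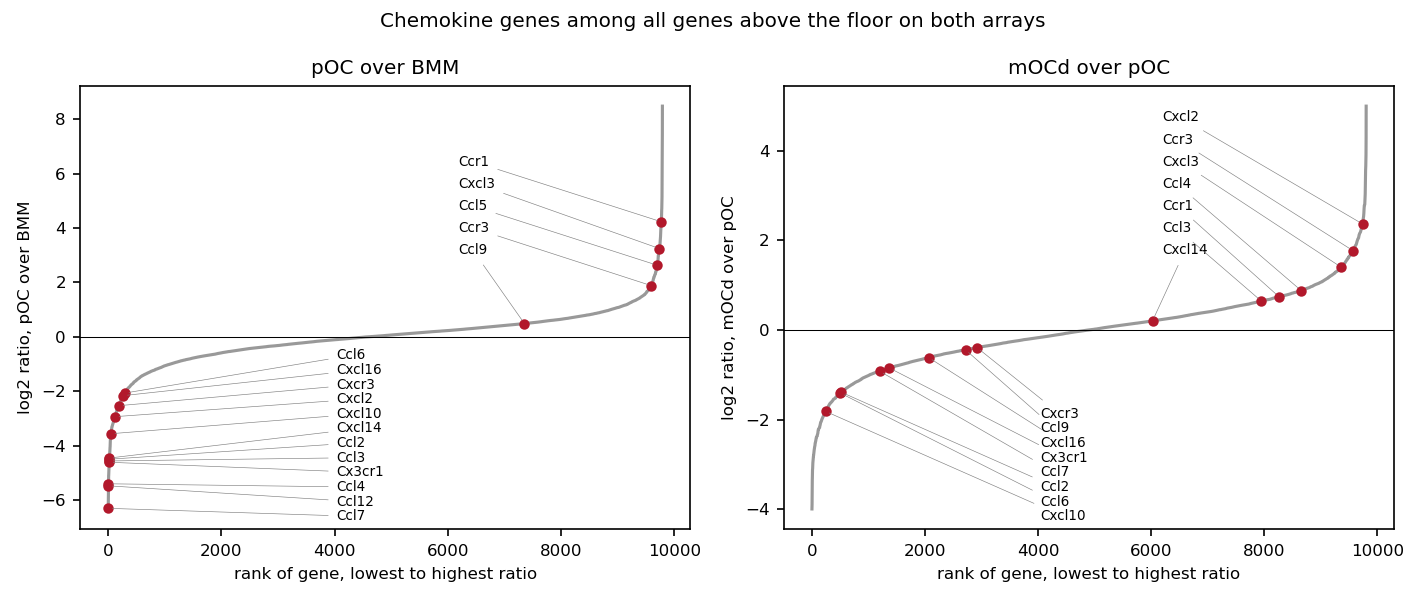
Genes above the floor on both arrays, ordered by log2 ratio (vertical axis) and numbered from the lowest (horizontal axis), for pOC over BMM and for mOCd over pOC; red points are the bright chemokine and receptor genes. In pOC over BMM, Ccl7, Ccl12 and Ccl4 lie among the lowest 6 of 9791 genes and Ccr1 among the highest 22.

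Mature cultures differed from pOC in fewer of these genes. In mOCp, 3 of 11 were called higher (Ccl3, Cxcl2 and Cxcl3) and 1 lower (Cxcl10), where 8.78% of all genes were called higher and 11.4% lower (20.2% in all). In mOCd, 3 of 11 were higher than in pOC (Cxcl2, Cxcl3 and Ccr3) and 4 lower (Ccl2, Ccl5, Ccl6 and Cxcl10), against 10.8% and 12.2% of all genes (23.0% in all). Between the mature cultures, mOCd exceeded mOCp in 1 of 10 genes (Ccr3) and lay under it in 3 (Ccl2, Ccl5 and Ccl6), where 2.20% and 2.55% of all genes were called (4.74% in all). The comparisons of mOCp and mOCd with pOC share the pOC array. Median log2 ratios were 0.47 for mOCp over pOC, -0.44 for mOCd over pOC and -0.81 for mOCd over mOCp. All genes counted in the same comparisons gave -0.03, -0.01 and 0.01. Members above the floor on either array gave 0.06, 0.06 and -0.19, and all such genes 0.01 in each comparison.

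**Figure D3:**
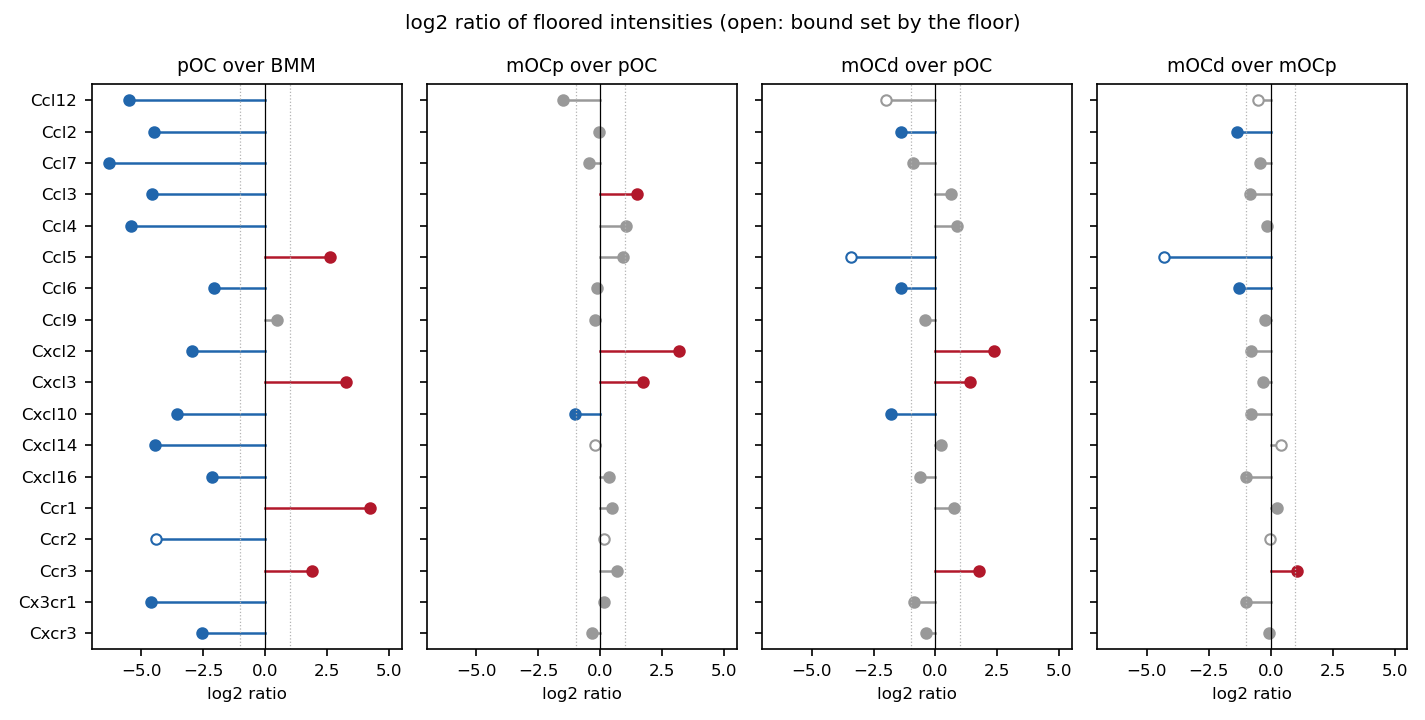
The log2 ratio of floored intensities of the 18 bright genes (rows) in the 4 comparisons (panels), red where called higher, blue where called lower and grey where not called. Open circles are bounds set by the floor, dotted lines mark 2-fold; Ccl5 lies right of 0 in pOC over BMM and left of it in both panels of mOCd.

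The ligands of CCR2, which recruit monocytes, were lower in pOC than in BMM for 3 of 3. Ccl2, encoding MCP-1, read 5256.7 in BMM and 231.9 in pOC, with 225.3 in mOCp and 88.6 in mOCd. Ccl7, encoding MCP-3, read 4255.2, 53.7, 38.7 and 28.4 in the same order. Ccl12, a mouse MCP, read 2844.0, 63.7, 22.4 and 1.6, the last under the floor. All 3 were thus highest in BMM and lowest in mOCd. In pOC they were 22.7-fold (Ccl2), 79.2-fold (Ccl7) and 44.6-fold (Ccl12) lower than in BMM, and Ccl7 ranked second lowest of 9791 genes above the floor on both arrays. Ccl2 was not called between mOCp and pOC (log2 ratio -0.04). It was 2.62-fold lower in mOCd than in pOC, and 2.54-fold lower in mOCd than in mOCp, where macrophage markers were lower as well. Ccl7 and Ccl12 were too dim in pOC to be called in the later comparisons.

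Ccr2, the receptor for these 3 ligands, was bright in BMM alone. It read 308.2 in BMM and 12.6 in pOC, with 16.2 in mOCp and 14.4 in mOCd, at least 21.3-fold lower in pOC than in BMM. Its log2 ratio of -4.41 became -3.68 with the floor at the 60th percentile and -2.95 with probe sets averaged. Its 3 further probe sets were lower in pOC than in BMM as well, by a log2 ratio of -3.49 on the next brightest and bounds of at least 2.12 and 1.29 log2 units on the others. On the dimmest of them mOCd read 31.9, above the floor, against 11.2 in pOC. The macrophage markers that moved with it were lower in pOC for 8 of 10, where 13.1% of all genes were called lower. Fcgr1 was among the 8, at 57.0 in pOC against 1967.2 in BMM. Csf1r, the M-CSF receptor, read 4898.6 in pOC and 5815.9 in BMM. The part of a change in cell make-up in these values was not tested.

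The inflammatory CC ligands Ccl3, Ccl4, Ccl5, Ccl6 and Ccl9, most of which bind CCR1, were not called in a single direction. Ccl3, encoding MIP-1 alpha, read 1527.8 in BMM and 64.5 in pOC, with 179.0 in mOCp and 100.8 in mOCd. Ccl4, encoding MIP-1 beta, read 1369.3, 32.3, 66.0 and 59.5 over the same cultures. Both were highest in BMM and lowest in pOC, 23.7-fold (Ccl3) and 42.4-fold (Ccl4) lower there than in BMM. Ccl3 was 2.78-fold higher in mOCp than in pOC, still 8.54-fold lower than in BMM. Ccl4 was 2.04-fold higher in mOCp than in pOC, without reaching the 75th percentile.

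Ccl9 and Ccl6 are neighbouring mouse genes with different courses. Ccl9 read 4863.6 in BMM and 6798.4 in pOC, with 5861.5 in mOCp and 5006.9 in mOCd, and no comparison called it. Its further probe set read 3819.5, 6699.4, 4648.0 and 3487.2, with the highest value in pOC on both. Ccl6 read 574.1, 136.8, 126.2 and 51.6, and 289.1, 63.2, 55.3 and 33.1 on its further probe set. The log2 ratio of Ccl6 was -2.07 for pOC over BMM, and the gene was 2.65-fold lower in mOCd than in pOC.

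Ccl5, encoding RANTES, a chemokine for T cells and monocytes, had the widest ratio of these 48 genes between the mature cultures. It read 27.1 in BMM and 167.3 in pOC, with 311.9 in mOCp and 3.5 in mOCd, where it was under the floor. It was 6.17-fold higher in pOC than in BMM. In mOCd it was at least 10.6-fold lower than in pOC and at least 19.7-fold lower than in mOCp. Its ratio of mOCp to pOC, 1.86-fold, was not called. The gene has 1 probe set, so no other probe measures it, and the part of T or NK cells in its values was not tested. Of 6 T and NK cell markers, Cd2 was above the floor in mOCp alone, at 15.1 against a floor of 14.8, and Cd3e in mOCd alone, at 21.4. The summed intensity of the 6 was 12.4 in BMM and 27.0 in pOC, with 36.1 in mOCp and 44.0 in mOCd.

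Ccr1, the receptor of this group on osteoclast precursors, was higher in every RANKL culture than in BMM. It read 152.2 in BMM and 2852.8 in pOC, with 3962.0 in mOCp and 4766.6 in mOCd, and was 18.7-fold higher in pOC than in BMM. Its further probe set read 8.3, 86.6, 166.8 and 370.5, in the same order of cultures. The probe sets differed in how much higher mOCd was than pOC, with a log2 ratio of 0.74 on the chosen one and 2.10 on the other. Ccr1l1, a related receptor-like gene, did not exceed 16.7 on any array.

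Ccr3, known as the eotaxin receptor of eosinophils, read 29.7 in BMM and 109.2 in pOC, with 176.3 in mOCp and 373.4 in mOCd. It read higher in pOC than in BMM and higher again in both mature cultures, with mOCd the highest. It was 3.68-fold higher in pOC than in BMM and 3.42-fold higher in mOCd than in pOC. The ratio of mOCd to mOCp, 2.12-fold, ended as a call when arrays were scaled to their medians or to the spike-in controls. Among its ligands, the eotaxin genes Ccl11 and Ccl24 stayed under the floor, at no more than 7.3 and 3.0. Ccr3 has 1 probe set.

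Of the 4 CXC ligands for CXCR2, the neutrophil receptor, Cxcl2 and Cxcl3 were higher in both mature cultures than in pOC. Cxcl2, encoding MIP-2, read 338.7 in BMM and 44.2 in pOC, with 395.9 in mOCp and 228.0 in mOCd. Cxcl3 read 12.9, 122.1, 399.5 and 323.1 in the same order, the first close to the BMM floor of 12.7. The pair therefore differed between BMM and pOC, where Cxcl2 was 7.66-fold lower and Cxcl3 9.47-fold higher in pOC (log2 ratio 3.24, or 2.34 with the floor at the 60th percentile), and both were higher in mOCp than in pOC. Cxcl2 was 8.96-fold higher in mOCp than in pOC and ranked 15th highest of 9974 genes, and Cxcl3 was 3.27-fold higher. In mOCd they were 5.16-fold (Cxcl2) and 2.65-fold (Cxcl3) higher than in pOC, and the value for Cxcl3 fell short of 2-fold with spike-in scaling.

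Cxcl1, encoding KC, stayed dim, at 29.8 in BMM and 58.6 in pOC, with 52.6 in mOCp and 40.8 in mOCd. Its 3 probe sets disagreed in direction between mOCp and pOC, with log2 ratios of -0.16 and 1.05 and a bound of at least 0.37. Cxcl5 read 0.5, 6.2, 10.7 and 21.1, above the floor in mOCd. Cxcr2 did not exceed 3.4 on any array. Of 8 neutrophil genes, 4 were bright enough to be called in mOCp against pOC, where Cxcl2 and Cxcl3 were higher. Of the 4 neutrophil genes, 3 were called higher in mOCp, against 8.78% of all genes. They were S100a8, at 1112.6 in mOCp against 380.1 in pOC, Lcn2, at 367.9 against 121.4, and Ngp, at 101.2 against 44.2. In mOCd Ngp alone was called higher than in pOC, at 100.0, while S100a8 read 506.8 and Lcn2 102.7. S100a9 read 208.5 in mOCp and 203.0 in pOC, and Elane, the neutrophil elastase, 12.5 in mOCp and 41.0 in pOC. Macrophage markers were also higher in mOCp than in pOC for 5 of 8, namely Adgre1 (3.73-fold), Cd14 (3.40-fold), C1qa, C1qb and C1qc. In mOCd 0 of 7 were higher than in pOC, where 10.8% of all genes were called higher. The part of neutrophils or macrophages in these values, and in that of Ccl3 in mOCp, was not tested.

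Promoters were searched in the 250 bases before each gene's start, on both strands, as given by RefSeq for build GRCm38.p6, for 35 of the 48 genes. The NF-kB consensus, named only, was in 8 of the 35 and in 4.46% of 27025 genes. The AP-1 motif TGANTCA was in 5 and in 7.82% of all genes. The interferon-stimulated response element GAAANNGAAA was in 2 (3.46%) and the PU.1 motif GAGGAAGT in 1 (2.79%). A match is a run of letters and not a measured binding site. The 220 bases before the start follow for the 5 bright genes with an NF-kB match and for Cxcl1, a dim gene with the same match as Cxcl2 and Cxcl3, with capitals for matched letters. They were chosen for the match. The windows of Ccl3, Ccl6, Ccl12, Ccr1, Ccr2 and Cx3cr1 held none of the 4 motifs. Of the 18 bright genes, 13 were among the 35 searched. Ccl2, Ccl4, Ccl5, Ccl7 and Cxcl16 had no promoter sequence to search, so nothing is known here of their motifs. Overlapping NF-kB matches on the 2 strands form 1 run in Cxcl1, Cxcl2 and Cxcl3.
Cxcl1: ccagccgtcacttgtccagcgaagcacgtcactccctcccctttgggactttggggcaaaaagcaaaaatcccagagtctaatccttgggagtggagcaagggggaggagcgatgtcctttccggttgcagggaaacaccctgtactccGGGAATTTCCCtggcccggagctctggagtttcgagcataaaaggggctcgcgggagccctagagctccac
Cxcl2: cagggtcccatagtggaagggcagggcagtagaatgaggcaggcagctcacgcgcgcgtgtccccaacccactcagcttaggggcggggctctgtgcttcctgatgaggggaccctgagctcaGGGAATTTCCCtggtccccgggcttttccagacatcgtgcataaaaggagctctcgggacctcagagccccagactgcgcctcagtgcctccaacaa
Cxcl3: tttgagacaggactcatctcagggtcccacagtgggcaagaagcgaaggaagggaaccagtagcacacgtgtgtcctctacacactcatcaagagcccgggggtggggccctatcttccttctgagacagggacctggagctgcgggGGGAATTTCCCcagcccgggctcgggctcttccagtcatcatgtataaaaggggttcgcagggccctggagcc
Cxcl10: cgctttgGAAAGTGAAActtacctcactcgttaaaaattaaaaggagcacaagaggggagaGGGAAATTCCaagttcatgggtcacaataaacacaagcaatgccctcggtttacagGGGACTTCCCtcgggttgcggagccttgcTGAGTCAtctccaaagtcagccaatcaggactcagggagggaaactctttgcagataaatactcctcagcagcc
Ccl9: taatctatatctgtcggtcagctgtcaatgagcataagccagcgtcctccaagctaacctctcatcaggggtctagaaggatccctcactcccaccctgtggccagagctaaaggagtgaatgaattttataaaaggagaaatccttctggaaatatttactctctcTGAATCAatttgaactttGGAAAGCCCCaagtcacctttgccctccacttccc
Ccr3: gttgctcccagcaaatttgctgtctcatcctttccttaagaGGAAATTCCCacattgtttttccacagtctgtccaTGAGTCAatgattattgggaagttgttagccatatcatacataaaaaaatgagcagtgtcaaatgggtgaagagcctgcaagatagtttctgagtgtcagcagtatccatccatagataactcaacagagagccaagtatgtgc
The printed bases lie at chr5:90891025-90891244 for Cxcl1, chr5:90903679-90903898 for Cxcl2 and chr5:90785881-90786100 for Cxcl3, all on the plus strand. Those of Cxcl10 lie at chr5:92348890-92349109 and those of Ccl9 at chr11:83578637-83578856, both on the minus strand. Those of Ccr3 lie at chr9:124021751-124021970 on the plus strand. Cxcl1, Cxcl2 and Cxcl3 share the same 11 letters, GGGAATTTCCC, starting 71, 97 and 73 bases before the start. On the probe sets used, these 3 genes had different courses in the arrays. For the dim Cxcl1 this depended on the probe set. A further one read 16.9, 26.5, 54.7 and 35.6, lowest in BMM and highest in mOCp, the same order of cultures as Cxcl3. The remaining probe set of Cxcl1 also read highest in mOCp, at 18.8. The part of the shared letters in these courses was not tested. Cxcl10 held 2 NF-kB matches, 1 AP-1 match and 1 response element.

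Cxcl10, the interferon-induced ligand of CXCR3, read 1111.3 in BMM and 93.9 in pOC, with 46.5 in mOCp and 26.7 in mOCd. Its intensity was lower in every RANKL culture than in BMM, by 11.8-fold in pOC. In mOCd it was 3.52-fold lower than in pOC. The 2.02-fold difference between mOCp and pOC was at the threshold and ended as a call after quantile or loess normalization. The other ligands of CXCR3, Cxcl9 and Cxcl11, did not exceed 8.2 and 14.2 on the probe sets used, and a further probe set of Cxcl11 read 18.5 in BMM. RefSeq lists Cxcl11 as a transcribed pseudogene.

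Interferon response genes moved beside Cxcl10. Of 8 on the array, 7 were lower in pOC than in BMM, where 13.1% of all genes were called lower. Rsad2, an antiviral protein, was among the 7, at 108.5 in pOC against 1809.1 in BMM. Against pOC, 4 of the 8 were bright enough to be called, and the same 4 were lower in mOCp and in mOCd. All genes called lower there came to 11.4% in mOCp and 12.2% in mOCd. The 4 included Usp18, at 24.4 in mOCp and 7.9 in mOCd against 154.7 in pOC. Cxcr3 read 179.5 in BMM and 31.0 in pOC, with 24.9 in mOCp and 23.6 in mOCd, 5.79-fold lower in pOC than in BMM.

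Cxcl14 and Cxcl16 were the other ligands to reach the 75th percentile. Cxcl14, expressed in many epithelia and in some macrophages, read 373.6 in BMM and 17.0 in pOC, with 12.0 in mOCp and 19.6 in mOCd. It was 22.0-fold lower in pOC than in BMM, with a log2 ratio of -4.46 against -2.69 on its further probe set. Of 5 stromal genes on the array, Col1a2 was above the floor in BMM, at 18.8, and the other 4 were under it. Their part in the Cxcl14 values was not tested. With a gene's probe sets averaged, the log2 ratio of Cxcl14 was -3.57. Cxcl16, a membrane-bound chemokine and scavenger receptor, read 608.1 in BMM and 135.7 in pOC, with 175.1 in mOCp and 88.7 in mOCd. Its further probe set read 412.2, 79.9, 104.8 and 50.9, and the chosen one was 4.48-fold lower in pOC than in BMM. Cxcr6, the receptor of Cxcl16, read 54.2 in pOC, 20.0 in mOCd and under the floor in the other cultures. A further probe set of Cxcr6 read 1.0, 16.3, 6.2 and 1.2, above the floor in pOC alone.

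Cx3cr1, the fractalkine receptor of macrophages, read 700.4 in BMM and 28.6 in pOC, with 31.8 in mOCp and 15.9 in mOCd. Its further probe set read 297.7, 6.0, 26.8 and 7.4. Only BMM was bright on both. The gene was 24.5-fold lower in pOC than in BMM. Its ligand Cx3cl1 did not exceed 18.1 on the chosen probe set. Cxcr4, which retains cells in the marrow, read 34.3, 23.4, 16.5 and 24.5, and its ligand Cxcl12 did not exceed 13.6.

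Among the 17 dim genes Ccl25, the ligand of CCR9, came closest to the 75th percentile, at 22.0 in BMM and 24.1 in pOC, with 71.0 in mOCp and 78.6 in mOCd. Its further probe set read 15.7, 22.8, 22.2 and 45.1, with mOCd the highest on both. Ccr7, the lymph node homing receptor of dendritic cells, read 39.7 in mOCp and at most 4.4 elsewhere, and Ccl27a read 14.2, 14.2, 29.2 and 34.9. The other members of this class were Ccl8, Ccl22, Ccl28, Ccr6, Ccr10, Ccr1l1, Cx3cl1, Cxcl1, Cxcl5, Cxcl13, Cxcl17, Cxcr4, Cxcr5 and Cxcr6. The 13 genes under the floor on every array were Ccl1, Ccl11, Ccl17, Ccl20, Ccl24, Cxcl9, Cxcl11, Cxcl12, Cxcl15, Ccr4, Ccr8, Ccr9 and Cxcr2, with no value above 14.4 on the probe sets used.

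The genes also lie in groups along the chromosomes. By gene order in RefSeq, 25 of 47 members with a protein-coding entry fell in 5 runs of at least 3 members with no more than 5 protein-coding genes between neighbours. In the run Ccl2, Ccl7, Ccl11, Ccl12, Ccl8 and Ccl1, the 3 bright genes were all lower in pOC than in BMM. In the run Ccl5, Ccl9, Ccl6, Ccl3 and Ccl4, pOC read higher for Ccl5, lower for Ccl6, Ccl3 and Ccl4, and Ccl9 was not called. In the run of Cxcl5, Cxcl3, Cxcl15, Cxcl1 and Cxcl2, Cxcl3 was higher and Cxcl2 lower. In the run Ccr9, Cxcr6, Ccr1, Ccr1l1, Ccr3 and Ccr2, Ccr1 and Ccr3 were higher and Ccr2 lower. Ccl22, Cx3cl1 and Ccl17 formed the fifth run, with no bright gene.

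Further probe sets gave a direct check of some of these ratios. Of the 18 bright genes, 7 had more than 1 probe set and 11 had 1. For pOC over BMM, 6 of 6 further probe sets had the direction of the chosen one, counting members for which both probe sets were above the floor on both arrays. For mOCp over pOC 4 of 6 did, the exceptions being Ccl25 and Cxcl1, and for mOCd over pOC 6 of 7. The median gap between probe sets of a member was 0.33 on the log2 scale for pOC over BMM and the widest 1.77, in Cxcl14.

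**Figure D4:**
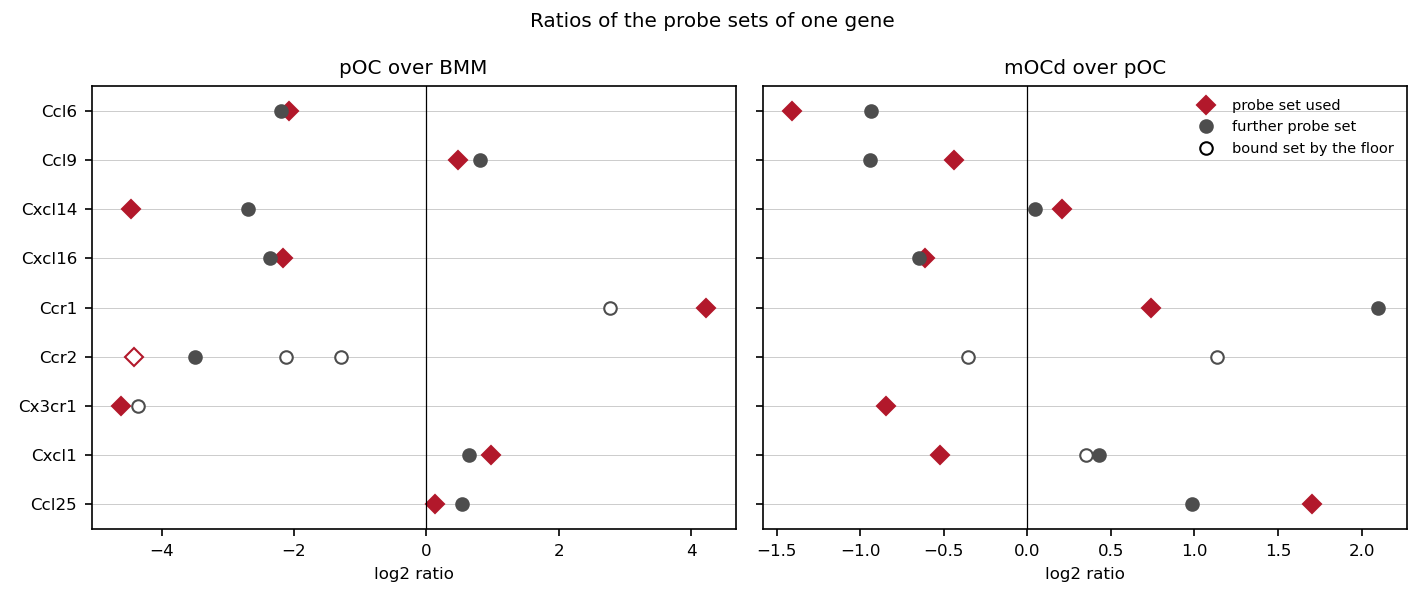
The log2 ratio of each probe set of the bright genes with several probe sets, and of Cxcl1 and Ccl25, for pOC over BMM and mOCd over pOC. Red diamonds are the probe sets used, grey circles further ones and open symbols bounds set by the floor; all probe sets of Ccr2 lie left of 0 in pOC over BMM, and those of Cxcl1 differ in sign in mOCd over pOC.

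Chemokine genes with other symbols were listed separately. Of 11 such genes, only Pf4 and Ackr4 were bright enough to be called in pOC against BMM, and 0 of these 2 were called. Pf4, encoding platelet factor 4, read 2064.2 in BMM and 1477.3 in pOC, with 2370.0 in mOCp and 1236.7 in mOCd. Ppbp, a further CXCR2 ligand, read 7.5, 42.1, 99.9 and 58.3, 2.37-fold higher in mOCp than in pOC. Ackr4, a scavenging receptor for CCL19 and CCL21, read between 123.0 and 230.5. Pf4 and Ackr4 were not called in any of the 4 comparisons.

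Of 18 signalling genes downstream of the receptors, 17 were bright enough to be called in pOC against BMM. Of these, 8 were lower in pOC and 2 higher, against 13.1% and 11.1% of all genes. The lower ones included Rgs1, a protein that shuts off G-protein signals, at 26.1 in pOC against 830.8 in BMM. Rgs18 read 28.2 in pOC against 965.3 in BMM, and Dock2, which activates Rac in migrating leukocytes, 126.1 in pOC against 757.8 in BMM. Grk3, a kinase that desensitizes receptors, was 25.1-fold higher in pOC than in BMM, at 718.2 against 28.6. The other higher gene was Rac2, at 2227.6 in pOC against 902.8 in BMM. Arrb1, which encodes beta-arrestin 1, read 302.3 in mOCp and 448.7 in mOCd against 110.9 in pOC. Arrb2 went the other way, at 888.4 in BMM and 360.6 in pOC, with 302.1 in mOCp and 207.1 in mOCd. It was called lower in pOC than in BMM. Of the G-protein subunits, Gnai2, Gnai3 and Gnb1 were not called in any comparison. Gng2 was lower in pOC than in BMM, at 82.2 in pOC against 527.3 in BMM, and at 37.4 in mOCd it was lower than in pOC and than in mOCp, where it read 140.9. Of 7 proteases known to cleave chemokines, Mmp9 and Mmp14 were higher in pOC than in BMM, while Adam10 and Adam17, which shed CX3CL1 and CXCL16, read 981.6 and 574.9 in pOC against 1849.5 and 997.7 in BMM and were not called.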

How the data were processed

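The authors deposited 1 linear signal intensity per probe set and array. They used MAS5, per the submitters' processing notes. Its version and a genome build are not given in the sources used here. With 2% trimmed from each end, the deposited values averaged 100.0 on every array. Such scaling removes differences in total mRNA, and MAS5 leaves dim probe sets imprecise. Gene names came from a platform annotation and, by Entrez identifier, a RefSeq table of GRCm38.p6, which matched all 48 genes.

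From these intensities Python 3.11.15 computed the floored ratios, counts and medians, and limma 3.58.1 the loess alternative. Each comparison has 1 array per group, so no test was possible. The genes named are all members by symbol, then genes of fixed related and marker lists. The members and lists were chosen with earlier results of these data known. Of 11 alternatives, 2 changed the floor, 4 the scaling, 2 the probe sets, 2 the fold and 1 the brightness needed.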

Additional observations from a re-analysis of the deposited data

Results flagged for a closer look

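Ccl5 differed in direction between the mature cultures when each was set against pOC. Its log2 ratio to pOC was 0.90 in mOCp and at most -3.40 in mOCd, a bound because mOCd lay under the floor. The ratio for mOCp was not called. The ratios share the pOC array, and the difference was not tested, since each culture has 1 array.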

How the results depend on the processing

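Of 32 calls of single members, 24 held under all 11 alternatives, among them all 17 between pOC and BMM. No called ratio changed direction in 256 recomputed ratios. The lower floor, the 1.5-fold setting and the 60th percentile for brightness only loosen the rule, so they could not end a call. Leaving out probe sets whose names carry a suffix could not end a call either. The chosen probe sets of the called genes carry none, so every called ratio was unchanged. Averaging probe sets can alter only genes with more than 1. For mOCd over mOCp the count of higher members, 1, became 0 with median or spike-in scaling or at 3-fold and 2 at the 60th percentile. The lower members, 3, became 6 with spike-in scaling or at 1.5-fold, 1 at 3-fold and 5 at the 60th percentile. For mOCd over pOC the higher members, 3, became 5 at 1.5-fold or the 60th percentile and the lower, 4, became 2 at 3-fold. For mOCp over pOC the higher members, 3, became 5 at 1.5-fold and 7 at the 60th percentile. The lower member there became 0 at 3-fold, after loess and after quantile normalization, and 3 at the 60th percentile. Spike-in scaling moved the median gene of mOCd over pOC to -0.47, that of mOCd over mOCp to -0.33 and that of mOCp over pOC to -0.14, and median scaling moved that of pOC over BMM to -0.15. With spike-in scaling the split of all called genes in mOCd over pOC came to 378 higher and 1882 lower, against 779 and 885. Median scaling gave 635 and 1089 there. For mOCd over mOCp spike-in scaling gave 60 and 419 and median scaling 111 and 230, against 152 and 176. For pOC over BMM median scaling gave 586 and 1213, against 806 and 953, and for mOCp over pOC spike-in scaling gave 492 and 1013, against 631 and 820. The bound of Ccl5 in mOCd over pOC ran from -5.18 with the lower floor to -2.68 on the log2 scale. No paired analysis was possible because each culture has 1 array.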

Other observations

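Inflammatory cytokines and NF-kB feedback genes, a list of 10 with 9 above the floor on some array, were also split. In pOC, Tnfaip3, an NF-kB feedback inhibitor, read 596.4 against 176.5 in BMM, and Il1rn, the interleukin-1 receptor antagonist, 399.8 against 194.4, both called higher. Tnf read 44.5 in pOC against 241.6 in BMM, and Nfkbiz, an atypical inhibitor of NF-kB, 16.4 against 141.1, both called lower. Il1b, encoding interleukin-1 beta, was 4.42-fold higher in mOCp than in pOC, at 97.7 against 22.1. Il1rn was 3.12-fold lower in mOCd than in mOCp, at 166.3 against 518.2.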
